A study of Homo sapiens with 3 samples.

Results

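The lysosome's acidifying pump, its cathepsin proteases, its most abundant membrane glycoproteins and 2 transcription factors linked to lysosomal genes were described in the breast cancer line CAMA1. Members were those matched by a rule on gene names, and rule and gene lists were chosen with earlier results of these data known. The rule took every V-ATPase subunit named ATP6V0 or ATP6V1, the accessory subunits ATP6AP1 and ATP6AP2, every cathepsin (CTS), LAMP1 to LAMP5, and TFEB and TFE3. The rule found 45 of the 26485 entries of the count table: 24 of the V-ATPase, 15 cathepsins, 4 LAMP genes and 2 factors. CAMA1 is an established human line of estrogen receptor-positive breast cancer with amplified FGFR1. The series held 1 group of 3 libraries, titled controls and described as biological replicates, from cells below passage 10 kept without estradiol for 48 h, and so no treated group was compared here. Poly-A RNA was sequenced with a stranded kit, and the libraries held 26473939, 26592335 and 30745412 counts (replicates 1, 2 and 3). All 10 markers of luminal epithelium were detected, each at 10 TPM or more.

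The V-ATPase is a rotary proton pump: its cytosolic V1 sector hydrolyses ATP, and its membrane V0 sector carries protons into the lumen of lysosomes and other acidic organelles. The low pH lets cathepsins, which reach the lysosome as inactive precursors, mature and digest proteins, while heavily glycosylated LAMP proteins line the membrane. TFEB and TFE3 are basic helix-loop-helix factors that enter the nucleus when mTORC1 is inactive and bind an E-box variant, the CLEAR element, in promoters of lysosomal genes. Several pump positions can be filled by alternative isoforms, some of them best known from kidney intercalated cells or osteoclasts.

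Levels are given as TPM, transcript abundance scaled to gene length and to the library's sum, computed from the deposited counts and lengths so that genes of different length can be compared. Detection required 10 or more counts in all 3 libraries. By this rule 36 of the 45 members were detected, against 67.3% of protein-coding genes and 54.9% of all entries. The median member stood at 56.9 TPM and the median protein-coding gene at 8.07 TPM. By mean level 24 members lay in the top 25% of protein-coding genes and 12 in the top 10%. Both pump sectors and their accessory subunits contributed to this upper set, with 16 of 24 V-ATPase genes in the top 25%, and so did 6 of 15 cathepsins.

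**Figure D1:**
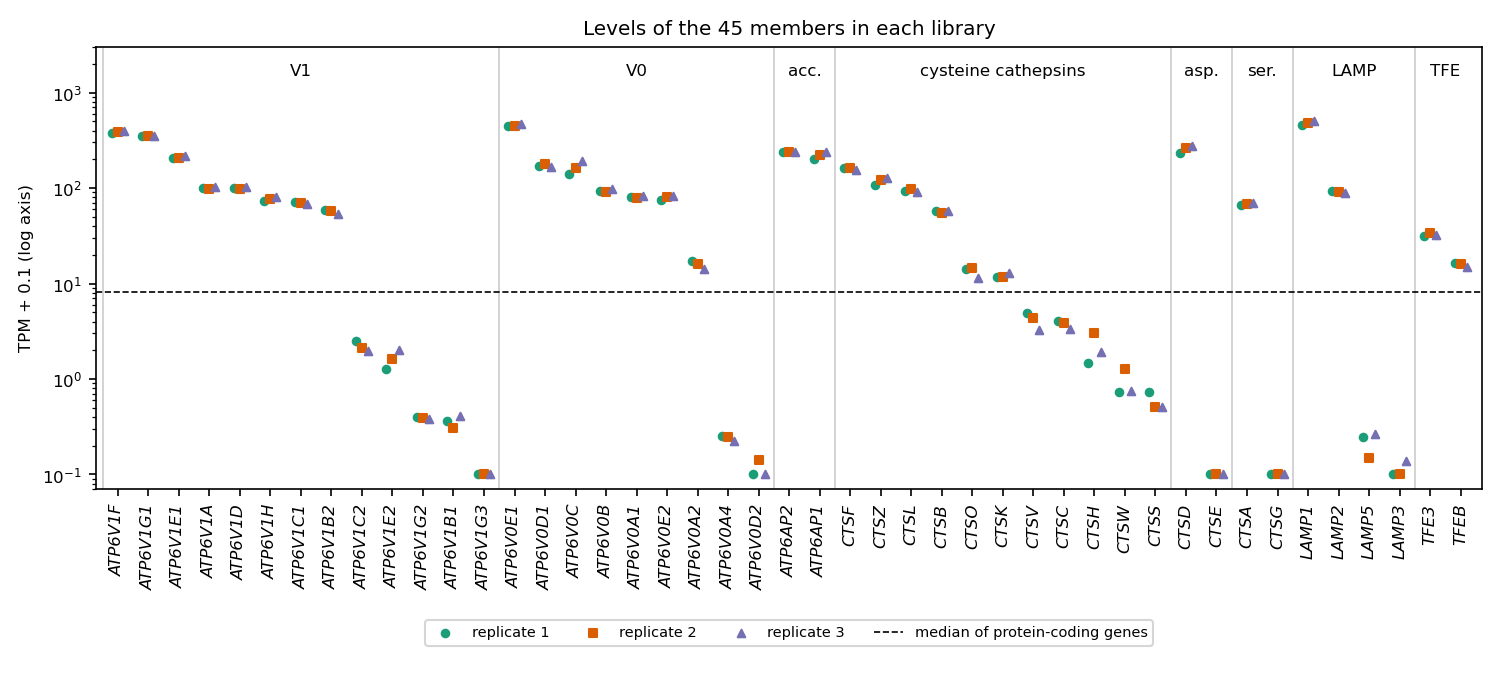
Level of each of the 45 members in each library (TPM + 0.1, log axis), grouped by role (acc., accessory subunits; asp. and ser., aspartic and serine cathepsins); the dashed line is the median protein-coding gene. Most pump genes sit above the line near 50 TPM or more, while ATP6V1C2, ATP6V1E2, the lower isoforms and several cathepsins sit below it, and ATP6V1G3, CTSE and CTSG had 0 counts in every library.

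The member with the highest level was LAMP1, a lysosomal membrane glycoprotein (hg38 chromosome 13, 113297154 to 113323426, plus strand). Its promoter is shown because it held more CLEAR cores than that of any other member with a sequence. The 165 bases before the first exon of the annotation, chr13:113296989-113297153 on the plus strand, are printed 5′ to 3′ with the CLEAR core, TCACGTG, in capitals.
LAMP1 upstream: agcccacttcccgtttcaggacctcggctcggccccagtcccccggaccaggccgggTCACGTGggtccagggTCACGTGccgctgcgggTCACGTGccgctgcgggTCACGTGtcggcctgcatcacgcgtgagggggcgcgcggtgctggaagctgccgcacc
This stretch held 4 cores in the same orientation, and the 300-base RefSeq window of LAMP1 held 6 in all.

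Promoter windows, from 250 bases before to 50 bases after the transcript start, came from RefSeq (GRCh38.p14) and were matched for 31 of the 45 members. The core TCACGTG, searched on both strands, was present for 8 of these 31 (25.8%), against 5.94% of 15153 protein-coding genes with a window. Among genes detected here it was present for 8 of 25 members (32.0%) and 7.12% of protein-coding genes. The plain E-box CACGTG, which every core contains, was present for the same 8 members and for 11.03% of protein-coding genes. As a second motif the GC box GGGCGG, also on both strands, was found for 67.7% of members and 65.5% of protein-coding genes. The members with a core were ATP6V0B, ATP6V0D1, ATP6V0E2, ATP6V1G1, CTSA, CTSD, CTSF and LAMP1. Their levels ran from 68.1 to 481 TPM with a median of 165 TPM, and those of the 23 members without one from 0 to 388 TPM with a median of 15.6 TPM. The 23 include all 6 members that had a window but were not detected. Members without a matched window are in neither set, and these ran from LAMP3 at 0.0127 to ATP6V0E1 at 456 TPM. Whether level goes with a core was not tested. A match describes letters in the window and not a bound site, and binding was not measured.

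One site per gene is printed for the other 7 members, as 30 bases in the direction of the gene, to show how alike the cores are. Capitals mark CACGTG with the T before it and the A after it where these are present.
ATP6V0B: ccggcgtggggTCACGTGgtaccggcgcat
ATP6V0D1: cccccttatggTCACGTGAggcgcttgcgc
ATP6V0E2: tcccttctgcaTCACGTGgggactgcgcct
ATP6V1G1: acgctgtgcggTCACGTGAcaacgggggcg
CTSA: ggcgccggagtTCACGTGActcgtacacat
CTSD: gccggccgcgccCACGTGAccggtccgggt
CTSF: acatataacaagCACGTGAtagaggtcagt
In GRCh38.p14 these lie at chr1:43974891-43974920, chr16:67481199-67481228 (minus strand), chr7:149872884-149872913, chr9:114587699-114587728, chr20:45891298-45891327, chr11:1763957-1763986 (minus strand) and chr11:66568712-66568741 (minus strand), in the order printed. ATP6V0D1, ATP6V1G1 and CTSA carry the palindrome with both flanking bases, while CTSD and CTSF carry the core on the opposite strand. ATP6V0B and CTSA each held a further core. Counted from the transcript start, the CACGTG of the printed site began between -72 and -25 in 6 of these genes and at -123 in CTSF.

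**Figure D2:**
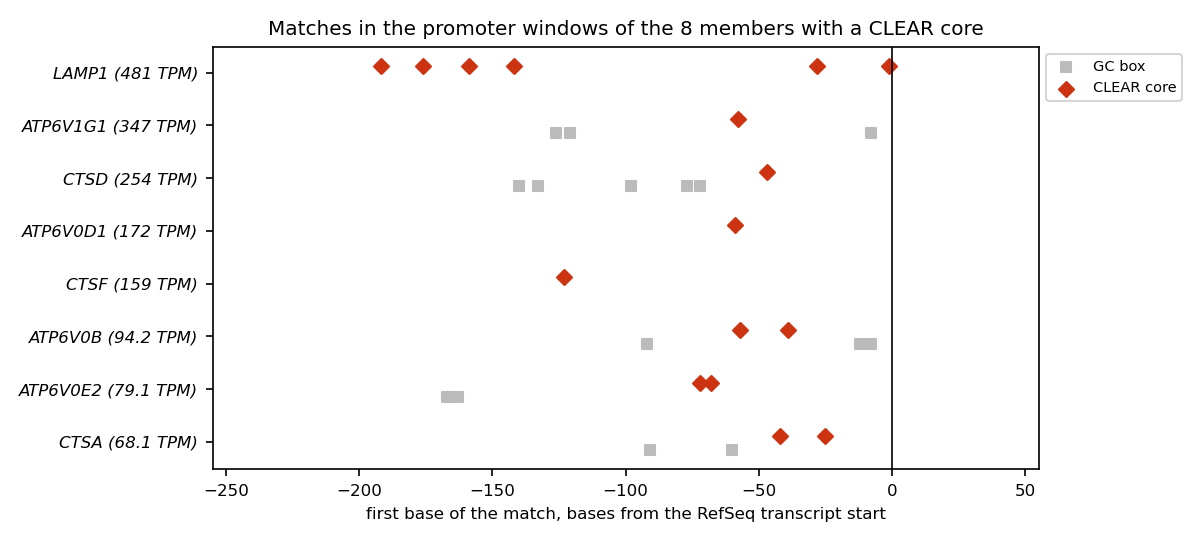
Position of CLEAR cores (diamonds, first base of the CACGTG within them) and GC boxes (squares) relative to the RefSeq transcript start (vertical line) for the 8 members with a core, ordered by mean TPM. LAMP1 has 6 cores and no GC box; the 2 diamonds of ATP6V0E2 are 1 site counted from 2 annotated starts.

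The V1 sector was detected at every one of its subunit positions. ATP6V1A and ATP6V1B2 form the catalytic hexamer. ATP6V1A stood at 100.7, 98.5 and 102.8 TPM in replicates 1, 2 and 3. For ATP6V1B2 the values were 59.2, 57.7 and 53.9 TPM. The hexamer holds these subunits in equal number, but their transcripts did not overlap in level, with A above B in 3 of 3 libraries. ATP6V1G1, of the peripheral stalks that join V1 to V0, stood at 347.7, 346.9 and 346.9 TPM. ATP6V1E1, its partner in these stalks, stood at 207, 205 and 214 TPM. Both lay above ATP6V1A in every library. ATP6V1F, a subunit of the central rotor (chromosome 7, 128862803 to 128865849, plus strand), was the highest of the sector at 381, 384 and 400 TPM. Its rotor partner ATP6V1D stood at 99.6 ± 2.33 TPM (SD, n = 3) and overlapped ATP6V1A. ATP6V1H, a regulatory subunit, and ATP6V1C1, which links stalk and membrane sector, followed at 76.9 ± 3.68 and 70.1 ± 1.43 TPM.

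In the V0 sector the highest level was that of ATP6V0E1, a small membrane subunit (chromosome 5, 172983760 to 173034897, plus strand), at 449.6, 449 and 469 TPM. The c subunit ATP6V0C, the repeated unit of the proton-carrying ring (chromosome 16, 2513726 to 2520223, plus strand), stood at 140, 161 and 192 TPM. ATP6V0B, the c″ subunit of the same ring, stood at 92.2, 91.8 and 98.6 TPM. The ring holds more copies of c than of c″, and their transcript means were 164 ± 26.1 and 94.2 ± 3.83 TPM. ATP6V0D1, which couples ring and central stalk, stood at 172 ± 6.96 TPM. The accessory subunit ATP6AP2, also called the prorenin receptor, stood at 237.5 TPM with libraries between 236 and 238. ATP6AP1, which helps assemble V0, stood at 203, 219 and 238 TPM.

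Summed over isoforms, the 13 subunit positions ran from 57.2 TPM for B to 535 TPM for e, a 9.36-fold range. In the order of single genes, 9 of 16 neighbouring V-ATPase pairs had library ranges apart and 7 overlapped, among them ATP6V0D1 with ATP6V0C and ATP6V1A with ATP6V1D. V-ATPase members together made up 0.287 ± 0.00744% of all TPM (SD, n = 3).

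Where a position had alternative isoforms, 1 isoform carried most of the transcript. For the a subunit, which lines the proton path and steers the pump to its organelle, ATP6V0A1 stood at 80.0, 79.5 and 81.7 TPM. ATP6V0A2, known from the Golgi, stood at 16.9, 15.9 and 14.1 TPM. ATP6V0A1 thus held 83.6 ± 1.44% of the transcript of ATP6V0A1, ATP6V0A2 and ATP6V0A4, and was 5.15-fold above ATP6V0A2 (log2 ratio 2.37 ± 0.15, SD, n = 3), or 3.28-fold by counts without length. The a3 isoform, TCIRG1, known from osteoclasts, is outside the naming rule and was added after its values were seen: it stood at 26.7, 29.2 and 33.6 TPM. Counting it lowered the share of ATP6V0A1 to 63.8%, gave TCIRG1 23.6% and placed it above ATP6V0A2 in every library.

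For the e subunit ATP6V0E1 held 85.2 ± 0.355% and ATP6V0E2 the rest, a 5.77-fold ratio (log2 2.53 ± 0.04), or 1.82-fold by counts without length. ATP6V0E2 lies over an antisense entry, ATP6V0E2-AS1. These were the positions with a second isoform above 10 TPM among the 7 positions that have several named members. ATP6V1C1 held 97.1% of subunit C, with ATP6V1C2 at 2.10 TPM. ATP6V1C2 overlaps PDIA6, which stood at 73.2 TPM, and how reads shared by both were counted is not given in the sources used here. ATP6V1E1 held 99.3% of subunit E, ATP6V1B2 99.5% of subunit B, ATP6V1G1 99.92% of subunit G and ATP6V0D1 99.99% of subunit d.

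Of the other isoforms some were detected at low counts and some fell below the detection rule. ATP6V1E2, best known from testis, had 23, 30 and 45 counts, and ATP6V1G2, known from neurons, had 33, 33 and 37. The length deposited for ATP6V1G2 spans alternate contigs, and its level was 0.291 TPM with that length and 1.97 TPM with exons of the main chromosome alone. ATP6V1B1 and ATP6V0A4, the isoforms of kidney intercalated cells, had 5, 4 and 7 and 5, 5 and 5 counts. ATP6V0D2 had 1 count in 1 library, and ATP6V1G3 had none in any library, which leaves room for up to 3 counts in each. Of 4 markers of intercalated cells 1 was detected, and their summed level was 1.94 to 2.34 TPM with SLC26A4 the highest at 1.58 TPM.

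**Figure D3:**
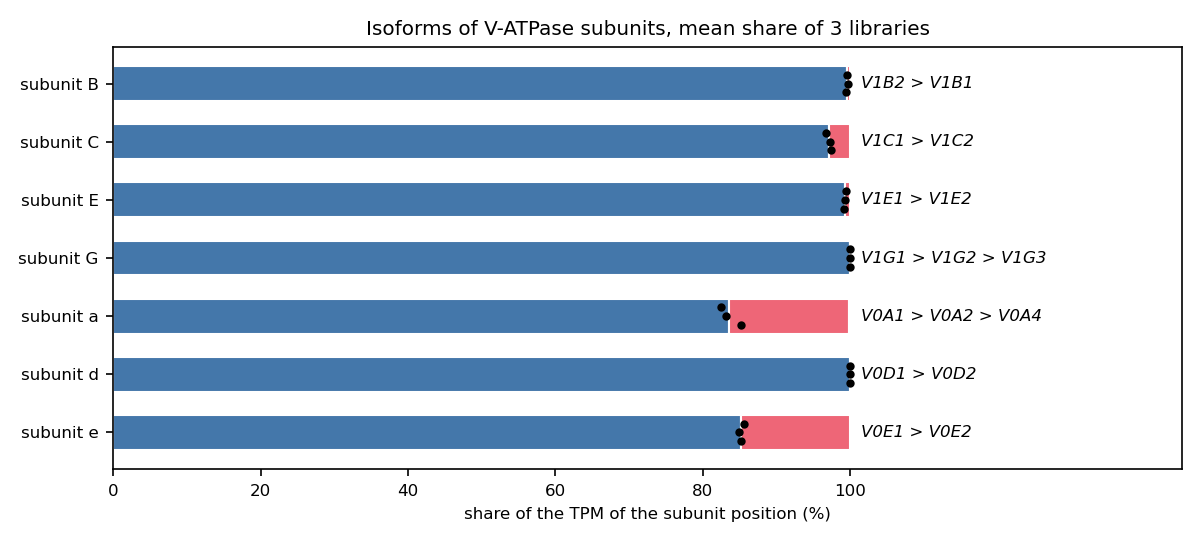
Share of each subunit position's TPM held by its isoforms (percent, mean of 3 libraries); blue is the leading isoform, pink the next, and dots are the leading isoform's share in each library. Positions a and e have a visible second isoform, at 16.3% and 14.8%, and at the other positions the leading isoform holds 97.1% or more.

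Within each library 13 ratios between related members were formed, and for each of them all 3 libraries pointed the same way. An exact permutation test that flips signs, two-sided, gave p = 0.25 for every one (0.25 after Benjamini-Hochberg adjustment), which is the smallest value 3 libraries allow, so none could pass 0.05.

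Among the cathepsins the aspartic protease CTSD was highest (chromosome 11, 1752752 to 1763992, minus strand). It is a classical estrogen-induced gene of breast cancer cells, here measured without estradiol. Its level was 230.0, 259.7 and 272.7 TPM in replicates 1, 2 and 3, or 254 ± 21.9 TPM. The cysteine protease CTSF (chromosome 11, 66563464 to 66568576, minus strand) followed at 160.6, 162 and 154 TPM. CTSZ, a carboxypeptidase, stood at 109, 121 and 127 TPM, and CTSL, an endopeptidase, at 91.9, 97.5 and 90.03 TPM. CTSA, a serine carboxypeptidase that also protects other lysosomal enzymes, stood at 68.1 ± 1.10 TPM and overlaps NEURL2 and PLTP. CTSB, often studied in tumour invasion, was the lowest of these 6 at 56.8, 54.7 and 56.9 TPM. The library ranges of these 6 genes did not overlap between any neighbours in the order, and CTSD was 4.51-fold above CTSB (log2 ratio 2.17 ± 0.14), or 2.40-fold by counts without length.

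CTSO and CTSK, the collagen-degrading cathepsin of osteoclasts, stood at 13.3 and 12.04 TPM and overlapped. The length deposited for CTSO was 5866 bases against 2933 of exon on its main chromosome, and with the latter its level was 25.8 TPM, above CTSK. CTSV, a close relative of CTSL, and CTSC, which activates granule serine proteases of immune cells, also overlapped, at 4.08 and 3.64 TPM. CTSL was 23.1-fold above CTSV (log2 ratio 4.53 ± 0.28), or 8.67-fold by counts without length. CTSH, an aminopeptidase, had only 20, 43 and 32 counts and was highest in replicate 2.

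The cathepsins best known from immune cells were the lowest. CTSS, of antigen-presenting cells, had 26, 17 and 20 counts. CTSW, of T and NK cells, had 8, 15 and 10 counts and overlaps FIBP. CTSG, of neutrophil granules, and CTSE, an aspartic protease of stomach and immune cells, had 0 counts in every library. Markers of these cells were also low: 3 of 11 myeloid and osteoclast markers were detected, with a summed level of 10.3 to 13.5 TPM, LYZ highest at 6.48 TPM and TYROBP at 0. Of 6 T and NK cell markers 1 was detected, with a sum of 2.24 to 3.41 TPM, CD8A highest at 1.54 TPM, and CD3D and PRF1 at 0. Of 4 neutrophil markers 1 was detected, AZU1 at 1.03 TPM, and MPO, ELANE and PRTN3 were at 0, with a sum of 0.840 to 1.15 TPM. Of 7 fibroblast markers COL3A1 (163 TPM) and COL1A1 (10.5 TPM) were detected and the other 5, among them DCN and LUM, were at 0.

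By class, cysteine cathepsins held 59.0 ± 1.52% of cathepsin TPM, aspartic ones 32.3 ± 1.67% and serine ones 8.67 ± 0.214%. All cathepsins together made up 0.0786 ± 0.00296% of TPM.

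**Figure D4:**
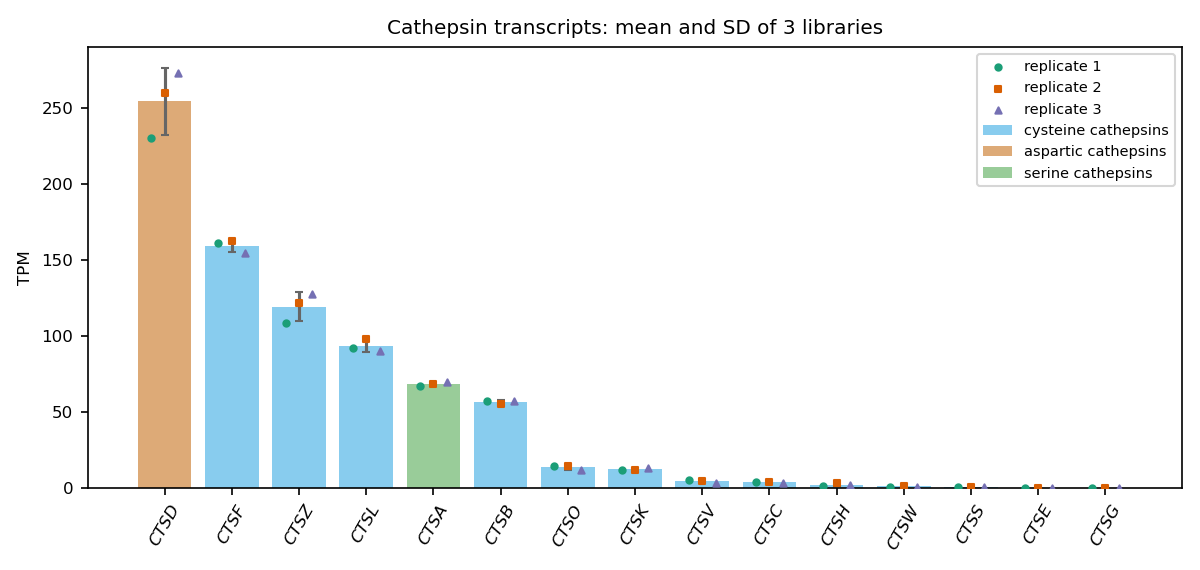
Levels of the 15 cathepsins (TPM); bars are means coloured by class, error bars the SD and symbols the 3 libraries. CTSD leads at a mean of 254 TPM, 6 cathepsins lie above 50 TPM, and the library ranges of those 6 do not overlap.

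LAMP1 stood at 459, 476 and 509 TPM and LAMP2, which also serves chaperone-mediated autophagy (chromosome X, 120426148 to 120469349, minus strand), at 92.4, 91.0 and 88.2 TPM. LAMP1 was 5.31-fold higher (log2 ratio 2.41 ± 0.11) and held 84.1 ± 1.004% of LAMP transcript. The deposited lengths of LAMP1 and LAMP2 were 2540 and 9388 bases, and by counts without length the ratio was 1.44-fold. LAMP5, known from neurons and plasmacytoid dendritic cells, had 3, 1 and 4 counts, and LAMP3, known from mature dendritic cells, had 0, 0 and 1.5. TFE3 stood at 31.0, 33.6 and 31.9 TPM and TFEB at 16.2, 15.9 and 14.8 TPM. TFE3 was 2.06-fold above TFEB (log2 ratio 1.04 ± 0.09), with no overlap between them. Of their relatives MITF stood at 2.54 TPM and TFEC had 1 count in 1 library.

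The wider lysosomal lists were nearly all detected, cystatins apart. All 35 genes of the hydrolase list, which also holds activator proteins of these enzymes, were detected, with a median of 50.4 TPM. PSAP, the saposin precursor and such an activator, was highest at 630 TPM, and the highest hydrolase was PPT1 at 575 TPM. All 19 genes of the list of membrane proteins, which also holds a soluble protein, were detected (median 51.2 TPM). SCARB2, the receptor that carries glucocerebrosidase, stood at 319 TPM. The 10 partners of the pump, which include the RAVE-like assembly factors DMXL1 (43.5 TPM) and ROGDI (65.1 TPM), were all detected (median 32.7 TPM). The 7 genes of mannose 6-phosphate and sortilin sorting were all detected as well (median 47.0 TPM). Of 17 genes of the TFE family and of mTORC1 at the lysosome 16 were detected, LAMTOR5 highest at 657 TPM. Cystatins, the inhibitors of cysteine cathepsins, differed in that 2 of 9 were detected, CSTB at 186 TPM and CST3 at 27.8 TPM.

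To see which members varied between replicates, each gene was tested in edgeR against counting error alone (chi-square test of the Poisson deviance, Benjamini-Hochberg over 14453 genes). The 3 libraries share their conditions by label, so the test measures only the spread between them, which may be technical. Of the 36 members tested 18 varied beyond counting error at an adjusted p under 0.05, against 41.6% of all genes tested. At 50 TPM or more, 14 of 24 members were called, against 64.3% of protein-coding genes at that level. By role, 7 of 7 tested genes of V0, 4 of 11 of V1 and 5 of 12 cathepsins were called. Of the 36 members tested 13 were both called and highest in replicate 3, against 19.4% of all genes tested. For replicate 2 these were 3 of 36 members and 9.37% of genes, and for replicate 1, 2 of 36 and 12.9%. At 50 TPM or more, 13 of 24 members were both called and highest in replicate 3, against 1428 of 4028 protein-coding genes at that level. Called or not, 21 of 36 members were highest in replicate 3, against 39.8% of genes tested, and at 50 TPM or more 19 of 24, against 48.4% of protein-coding genes at that level. Scaled by library totals alone, 20 of 36 were highest in replicate 3, against 35.2% of genes. Without replicate 3, 7 of 36 members were called, against 8.08% of genes.

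The called member with the widest spread at 50 TPM or more was ATP6V0C, at 63.9, 74.5 and 91.3 CPM (counts scaled to library size and TMM factor, not to gene length) in replicates 1, 2 and 3, a 1.43-fold range. CTSD stood at 180.9, 207 and 224 CPM, a 1.24-fold range (edgeR Poisson adjusted p = 3.87e-27). CTSZ stood at 60.3, 68.5 and 73.7 CPM (1.22-fold). ATP6AP1 stood at 158, 173 and 193 CPM (1.22-fold), and LAMP1 at 432, 454 and 499.5 CPM (1.16-fold). In all of these replicate 1 was lowest and replicate 3 highest. The called members CTSV, ATP6V0A2 and CTSO were instead lowest in replicate 3. CTSV stood at 8.1, 7.3 and 5.6 CPM, ATP6V0A2 at 41.0, 39.2 and 35.5, and CTSO at 30.7, 31.7 and 25.7. The summed level of the 10 luminal markers was also lowest in replicate 1 and highest in replicate 3, 9231 against 11190 TPM. KRT19 and KRT8 made up most of that sum. Of the 10 markers 8 were called, and 6 of these were highest in replicate 3. Of the 4028 protein-coding genes at 50 TPM or more 64.3% were called, and 1428 were called and highest in replicate 3. ESR1, not called, lay below that level at 30.1 TPM. TFF1, an estrogen-responsive gene, was lowest in replicate 3 at 25.5, 27.3 and 12.6 CPM, and was the 1 listed gene called beyond the edgeR trend (adjusted p = 2.6e-05). CDH1 was also lowest there, at 173.6, 162.1 and 154.3 CPM. Replicate 3 was the deepest library as well. The part of either in the members' spread was not tested.

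Against the usual spread of genes at their level, the trended negative binomial dispersion of edgeR, 0 of 36 members were called, where 1.31% of genes tested were. At an unadjusted p under 0.05 there was 1 member, ATP6V0C, against 6.07% of genes; its adjusted p in edgeR was 0.165. The coefficient of variation of CPM had a median of 4.77% over the members and 6.93% over all genes tested. At 50 TPM or more the medians were 4.08% for members and 4.58% for protein-coding genes. The steadiest members were LAMP2 (0.235%) and ATP6V1C1 (0.392%), and the least steady was the low CTSH (38.7%).

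**Figure D5:**
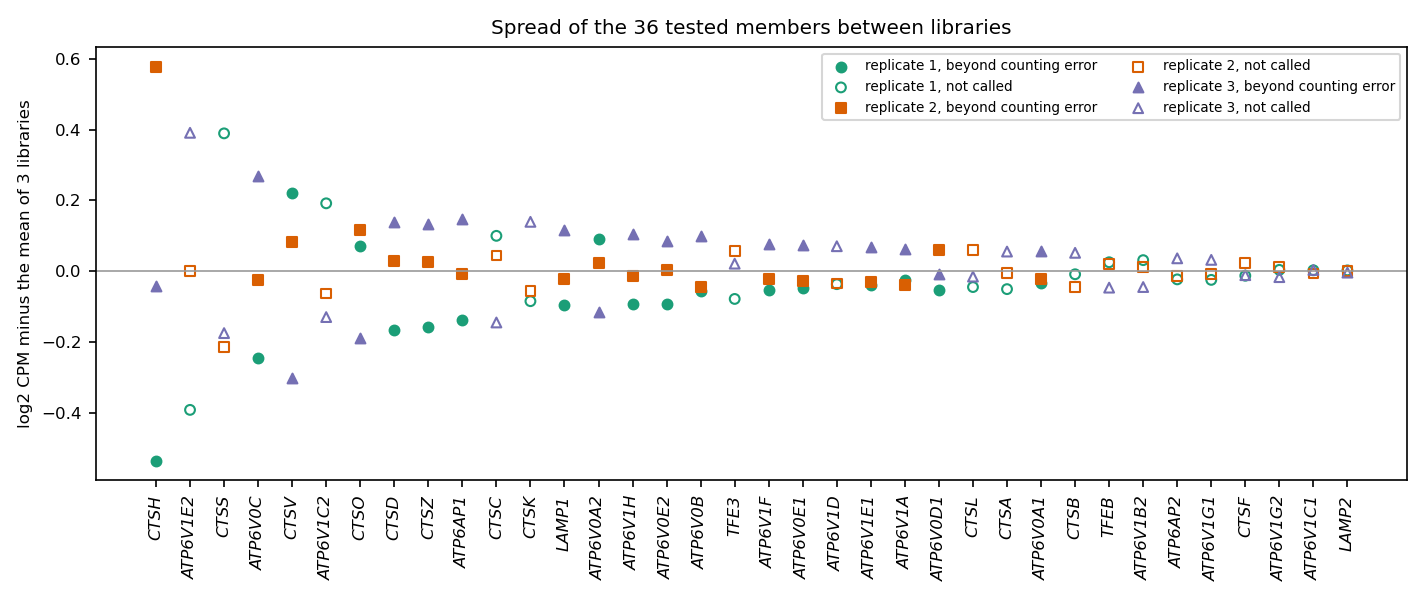
Level of the 36 tested members in each library as log2 CPM minus the mean of the 3 libraries, widest spread on the left; filled symbols are the 18 members that varied beyond counting error. ATP6V0C, CTSD, CTSZ, ATP6AP1 and LAMP1 are lowest in replicate 1 and highest in replicate 3, and CTSV, ATP6V0A2 and CTSO are lowest in replicate 3.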

How the data were processed

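Expected counts per gene and gene lengths were deposited by the authors for 3 libraries of 1 group. The build hg38 and the tools TopHat, featureCounts and Subread are named per the submitters' processing notes; versions, strand setting and the treatment of reads with several matches are not given in the sources used here. Of the non-zero values 83.1 ± 0.243% were whole within 1e-08, and 6 members had fractional counts. Deposited lengths equalled merged exons over all sequences, alternate contigs included. TPM was computed from these counts and lengths, and ratios used 0.01 TPM added. For edgeR 4.0.16 (R 4.3.3) counts were rounded, scaled by TMM (factors 1.011, 1 and 0.9895), filtered with filterByExpr and fitted with an intercept; the code was tested on simulated data. Chi-square per gene between library pairs was 5.65, 18.6 and 13.6, so no library was a copy. By the rule for named genes all members and the highest of each list of other cell types were named. The rule also set the 3 highest genes of each pathway list, but not all of these were named, and none for mannose 6-phosphate and sortilin sorting. MITF, TFEC, TCIRG1, PDIA6, the luminal markers and markers at 0 were named outside it, after their values were seen. Members and lists were chosen with earlier results of these data known. Alternatives were CPM, exon length on the main chromosome, DESeq2 1.42.0 size factors, other filters and each replicate left out. Counting limits cover counting error only.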

Additional observations from a re-analysis of the deposited data

How the results depend on the processing

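All 13 paralog ratios kept their direction by CPM. Leaving out 1 replicate or adding 1 TPM to both genes could not reverse a ratio on which all 3 libraries pointed the same way. Exon length on the main chromosome changed the length ratio only for pairs with ATP6V1G2 or ATP6V1G3, and these kept their direction. Between 34 and 40 members were detected under 6 alternatives against 36, and 0 members varied beyond the edgeR trend under 6 of 6. With CPM in place of TPM, which ignores length, the leading isoforms held 76.5% (ATP6V0A1), 64.5% (ATP6V0E1), 99.7% (ATP6V1B2), 98.3% (ATP6V1C1), 98.97% (ATP6V1E1) and 99.42% (ATP6V1G1), the LAMP1 to LAMP2 ratio was 1.44-fold in place of 5.31-fold, and V-ATPase members and cathepsins made up 0.199% and 0.0653% of counts. Counting TCIRG1, an alternative chosen after seeing the data, gave ATP6V0A1 63.8%. Leaving out 1 replicate, between 7 (without replicate 3, 8.08% of all genes) and 17 members (without replicate 2, 37.3%) varied beyond counting error, and 12 without replicate 1 (32.6%). Exon length on the main chromosome moved 15 of 45 member levels by more than their SD, and ATP6V1G2 and CTSO by over 1.5 times. Members without alternate contigs kept their own length. Their levels changed only with the library sum, to a median of 97.0% of the main value. No paired analysis was possible because the series has 1 group. Proteins of the isoforms were not compared here. Levels below about 10 counts rest on counting error, and 3 libraries cannot give a sign-flip p below 0.25.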
